A study of Mus musculus with 10 samples.

Results

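Transcripts of 32 endothelial genes were examined in mouse aorta, in 10 RNA sequencing libraries of the C57BL/6 strain at 12 weeks of age. The genes were taken by symbol, as markers of endothelial identity and of endothelial cell junctions, and each symbol matched 1 of the 35667 genes in the count files. By their titles, 5 libraries came from Ovgp1 KO mice (Ovgp1 encodes oviductal glycoprotein 1) and 5 from wild-type (WT) mice. In the genotype label the gene's number rises with the replicate, from Ovgp1 in KO replicate 1 to Ovgp5 in KO replicate 5. How the knockout was made, and whether libraries came from separate animals, was not given in the labels. The series asks about Ovgp1, the non-muscle myosin MYH9, remodelling of the vessel wall and hypertension.

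Endothelial cells form the inner lining of every blood vessel and are held together by adherens junctions, built on VE-cadherin, and by tight junctions. They are kept and patterned by vascular endothelial growth factor (VEGF) and angiopoietin receptors and by transcription factors of the ETS and SOX families. In the aorta the lining is a monolayer on a thick layer of smooth muscle, and the adventitia and the fat around the vessel carry small vessels with endothelium of their own. RNA from whole aorta therefore mixes endothelium of several kinds with other cells, and in such bulk samples fewer endothelial cells and less RNA per cell cannot be told apart.

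Total counts per library ran from 21242030 to 26694590. The 5 KO libraries differed very little from each other. Pairs of them gave 1.77 to 3.25 chi-square units per degree of freedom (1 means counting error alone), against 11.03 to 154 for pairs of WT libraries, and edgeR's biological coefficient of variation came to 2.82% within KO and 21.2% within WT. The SD of a KO value thus covers little beyond counting error, and p-values from 5 against 5 libraries measure the spread of these libraries, which may be technical. A fit with the KO counts summed into 1 sample, whose spread comes from WT alone, is therefore given beside it. The targeted gene went against the labels: its level, in counts per 1000000 (CPM, scaled by TMM), was 1.98 to 4.69 under the WT label but 17.8 to 21.9 under the KO label, and the part of the gene that was removed is not given. KO and WT below mean the libraries so labelled, and every direction rests on labels that Ovgp1 does not bear out. WT replicates 1 and 3 had the largest mitochondrial shares of counts, 16.2% and 13.2%. The shares elsewhere were 6.75% to 9.59% (WT) and 7.61% to 7.88% (KO). Markers of the labelled tissue were present, with the smooth muscle genes Acta2 and Myh11 at 14722 and 7229 CPM or more in every library. Another smooth muscle gene, Tagln, had only 20.8 to 23.5 CPM in KO and 22.3 to 29.3 CPM in WT. The reason for its low counts was not tested.

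Of the 32 endothelial genes, 1 passed the test between the libraries labelled KO and WT, while most varied several-fold among the WT libraries themselves. All 32 passed the filter on low counts. In edgeR's 5 against 5 test 1 of 32 was higher in KO, the apelin receptor gene Aplnr, where 6.84% of all genes tested were called higher. None was lower, where 7.43% of all genes were called lower (1075 and 1167 genes; 1319 and 741 with upper-quartile factors, 1561 and 493 with library totals alone, 1294 and 676 without the low-count filter). Before adjustment 3 lower genes, Pecam1, Rasip1 and Tal1, had p under 0.05 in edgeR's test. So did at least the 7.43% of all genes that were called lower after adjustment, and the full unadjusted share was not taken. DESeq2 with adjustment called 0 lower as well. The other 31 had adjusted p-values of 0.126 to 0.997. The median log2 difference, KO minus WT, was -0.19 over the 32 genes and -0.02 over all genes tested, with 22 of the 32 below 0 and 10 above. With KO as 1 sample 0 of 32 passed (0.0446% of all genes did), and 1 of 32, Aplnr, had an unadjusted p under 0.05, where 3.72% of all genes did.

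These counts do not show that the 31 others were unaltered. The 95% interval of a gene's difference reached a median of 1.66-fold to each side of the estimate in the 5 against 5 fit. It reached 3.10-fold with KO as 1 sample (lowest 1.498-fold, highest 6.64-fold). In that fit the interval of 30 of the 32 genes held a 2-fold difference in at least 1 direction. The others were Eng (0.599 to 1.34-fold) and Erg (0.621 to 1.96-fold).

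**Figure D1:**
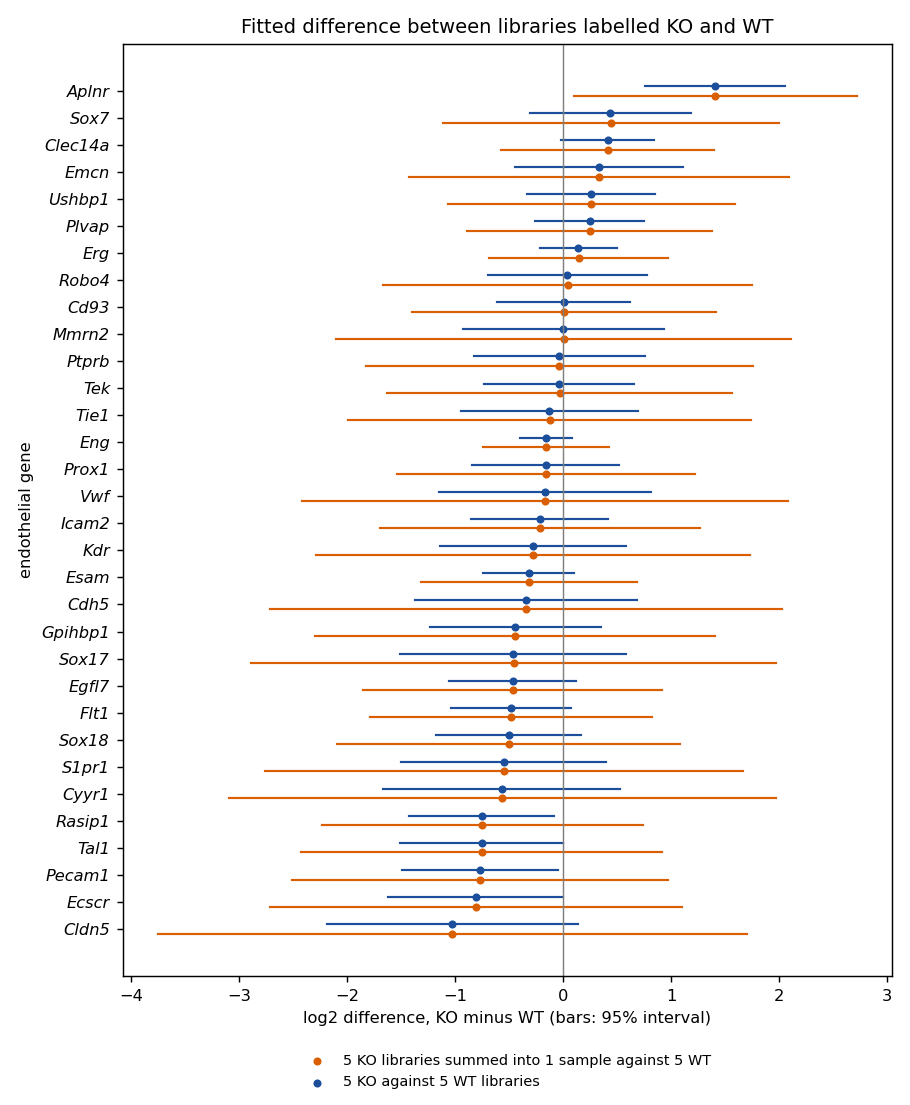
Fitted log2 differences (KO minus WT, x axis) of the 32 endothelial genes, with 95% intervals, for 5 KO against 5 WT libraries (blue) and for the KO counts summed into 1 sample (orange). In the 5 against 5 fit the interval of Aplnr, at 1.41, lies wholly above 0; most others span 0, and those of Pecam1, Rasip1 and Tal1 end just below it without passing the adjusted threshold.

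Promoters are shown because most of these genes had the same WT libraries highest and lowest, as given below. RefSeq windows of 250 bases before to 50 after a transcription start (GRCm38.p6) were matched for 16 of the 32 genes, in 22 windows. Among genes with 1 window, Cldn5 and Cyyr1 had the most spread among WT libraries, and Clec14a and Eng the least. Their windows are chr16:18776597-18776896 (plus strand), chr16:85550324-85550623 (minus), chr12:58269209-58269508 (minus) and chr2:32646345-32646644 (plus), each written 5′ to 3′ along the gene. The Cyyr1 window lies at a RefSeq start inside the gene as annotated by GENCODE, whose 5′ end is at 85553397, so it is not the promoter of that longer gene model. Capitals mark matches on either strand to any of 4 motifs of endothelial transcription factors, which are spelled out under the windows; no 2 matches overlapped in these windows.
Cldn5: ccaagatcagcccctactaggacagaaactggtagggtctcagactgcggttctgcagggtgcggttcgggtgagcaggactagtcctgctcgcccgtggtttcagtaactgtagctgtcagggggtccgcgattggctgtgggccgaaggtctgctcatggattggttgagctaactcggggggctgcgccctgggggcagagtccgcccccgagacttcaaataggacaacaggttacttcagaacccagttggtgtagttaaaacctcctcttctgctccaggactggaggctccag
Cyyr1: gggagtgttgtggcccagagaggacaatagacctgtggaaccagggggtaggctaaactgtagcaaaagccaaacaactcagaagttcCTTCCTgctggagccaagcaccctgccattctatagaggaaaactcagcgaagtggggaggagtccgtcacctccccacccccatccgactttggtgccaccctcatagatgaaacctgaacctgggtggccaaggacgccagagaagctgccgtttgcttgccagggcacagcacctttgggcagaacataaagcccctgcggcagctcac
Clec14a: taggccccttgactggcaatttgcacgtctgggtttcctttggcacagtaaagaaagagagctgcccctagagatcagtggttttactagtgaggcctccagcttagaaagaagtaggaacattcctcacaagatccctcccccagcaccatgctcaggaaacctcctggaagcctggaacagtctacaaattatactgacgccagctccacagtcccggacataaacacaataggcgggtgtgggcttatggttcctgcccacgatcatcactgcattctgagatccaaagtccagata
Eng: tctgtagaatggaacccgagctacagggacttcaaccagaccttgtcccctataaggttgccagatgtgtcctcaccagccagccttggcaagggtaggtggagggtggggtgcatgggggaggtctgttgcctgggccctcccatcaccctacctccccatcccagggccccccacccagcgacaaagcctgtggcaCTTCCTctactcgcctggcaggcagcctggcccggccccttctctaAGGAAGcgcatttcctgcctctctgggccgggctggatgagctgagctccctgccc
Cyyr1 held 1 ETS match and Eng 2, at 52 and 6 bases before the start, while Cldn5 and Clec14a held none of the 4 motifs. Shorter ETS-like letters such as GGAA, which the Clec14a window does hold, were not searched. The ETS family motif AGGAAG was found in 11 of the 22 member windows and in 35.4% of all 32851 windows of the same length. The other ETS motif searched, CGGAAG, was found in 1 member window and in 16.9% of all windows. At least 1 of these ETS motifs was found in 11 member windows, from 10 of the 16 genes, and in 46.5% of all windows. For the SOX family the letters AACAAT were found in 4 member windows and 10.7% of all windows. Letters bound by zinc finger factors such as GATA2 were searched as AGATAA and found in 3 member windows and 11.2% of all windows. A match to these letters is not a bound site, and their absence from a window says nothing of the factors.

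Aplnr (ENSMUSG00000044338; chromosome 2, 85136225 to 85139923 in GRCm38) encodes the G protein-coupled receptor for apelin and elabela, found on sprouting, capillary and venous endothelium. It had 36, 46, 38, 40 and 31 counts in KO replicates 1 to 5 and 12, 4, 13, 20 and 11 in WT replicates 1 to 5, or 1.44, 1.73, 1.42, 1.46 and 1.15 against 0.544, 0.171, 0.649, 0.823 and 0.511 CPM. Every KO library exceeded every WT library, a separation seen for 7.38% of all genes tested. The log2 difference, KO minus WT, was 1.41 (SE 0.30, adjusted p = 0.0103), a fold of 2.65 (95% interval 1.69 to 4.16). With KO as 1 sample the interval was 1.07 to 6.60-fold and the adjusted p was 0.999. The counts are few: the exact Poisson interval of the 20 counts in WT replicate 4 was 12.2 to 30.9, and that of the 31 counts in KO replicate 5 was 21.1 to 44.00, so these 2 libraries were not separated by counting error. Aplnr did not share the WT order of most of the other genes, since WT replicate 3 was next to highest and WT replicate 5 next to lowest. Of its ligands, Apln had 0.183 to 0.564 CPM in KO and 1.27, 0.599, 0.0998, 0.247 and 0.557 CPM in WT replicates 1 to 5. The fitted log2 difference of Apln was -0.53 (SE 0.53, adjusted p = 0.547). Those WT values rest on 2 to 28 counts. Apela had 0 counts in 8 of the 10 libraries and 1 in each of WT replicates 1 and 4, and was not tested.

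The other receptor of this class, S1pr1, responds to sphingosine 1-phosphate in blood and steadies the endothelial barrier. It had 22.4 to 25.1 CPM in KO and 19.3, 26.6, 8.58, 65.3 and 50.5 CPM in WT replicates 1 to 5. The KO libraries lay above WT replicates 1 and 3 and below the other 3, and the log2 difference, KO minus WT, was -0.55 (SE 0.43, adjusted p = 0.431).

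Junction and surface adhesion genes spread widely among WT libraries, and 0 of 6 passed the test. Over all genes tested 14.3% passed in either direction, so 0 calls in a group this small, here or below, say little about the group. Pecam1 (ENSMUSG00000020717; chromosome 11, 106654217 to 106750628 in GRCm38), whose product CD31 joins neighbouring endothelial cells and is also carried by platelets and leukocytes, was the most abundant of the 32 per length, at 34.3 CPM per kb of merged exons. It had 159, 158, 155, 160.1 and 156 CPM in KO and 143, 405, 107, 366 and 324 CPM in WT. KO values sat just above WT replicate 1, further above WT replicate 3 and far below the other 3 WT libraries. The log2 difference, KO minus WT, was -0.77 (SE 0.33, adjusted p = 0.145), a fold of 0.586 with a 95% interval of 0.355 to 0.968. Without WT replicate 3 Pecam1 passed as lower (log2 difference -0.97, adjusted p = 0.0261). That was its lowest WT library, so leaving it out moves Pecam1 toward lower by construction. In that fit 1361 of 15892 genes were called lower.

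Cdh5 (ENSMUSG00000031871; chromosome 8, 104101625 to 104144511 in GRCm38), which encodes VE-cadherin, had 595, 639, 621, 640 and 572 counts in KO and 337, 427, 146, 1508 and 939 in WT replicates 1 to 5. In CPM these were 23.7, 24.02, 23.3, 23.4 and 21.2 against 15.3, 18.3, 7.29, 62.1 and 43.6. WT replicate 4 thus held 8.52 times the level of WT replicate 3, far outside their counting intervals (1433 to 1586 and 123 to 172 counts), and the KO libraries fell between WT replicates 2 and 5. The log2 difference, KO minus WT, was -0.35 (SE 0.46, adjusted p = 0.669). The tight junction gene Cldn5 (ENSMUSG00000041378; chromosome 16, 18776847 to 18778262 in GRCm38) had the largest coefficient of variation among WT of the 32, 89.00%. It had 9.45, 8.83, 10.97, 10.1 and 7.95 CPM in KO and 7.02, 10.01, 5.74, 45.2 and 28.05 CPM in WT. KO values overlapped WT replicate 2 and lay well below WT replicates 4 and 5, and the log2 difference, KO minus WT, was -1.03 (SE 0.52, adjusted p = 0.223).

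Esam, an immunoglobulin-family adhesion protein of endothelial tight junctions, was the fourth most abundant per length (15.2 CPM per kb). It had 38.6, 39.4, 39.3, 38.4 and 38.9 CPM in KO and 31.3, 47.9, 34.9, 70.7 and 57.3 CPM in WT, with KO between WT replicates 2 and 3, and the log2 difference, KO minus WT, was -0.32 (SE 0.19, adjusted p = 0.303). Icam2, a ligand for leukocyte integrins, had 5.96 to 7.55 CPM in KO and 3.29 to 13.3 in WT. Emcn, the sialomucin endomucin of capillaries and veins, had 5.11 to 5.62 CPM in KO and 1.60 to 7.33 in WT, with a log2 difference of 0.33 (adjusted p = 0.574). In all 6 genes of this group the KO libraries lay inside the WT range.

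**Figure D2:**
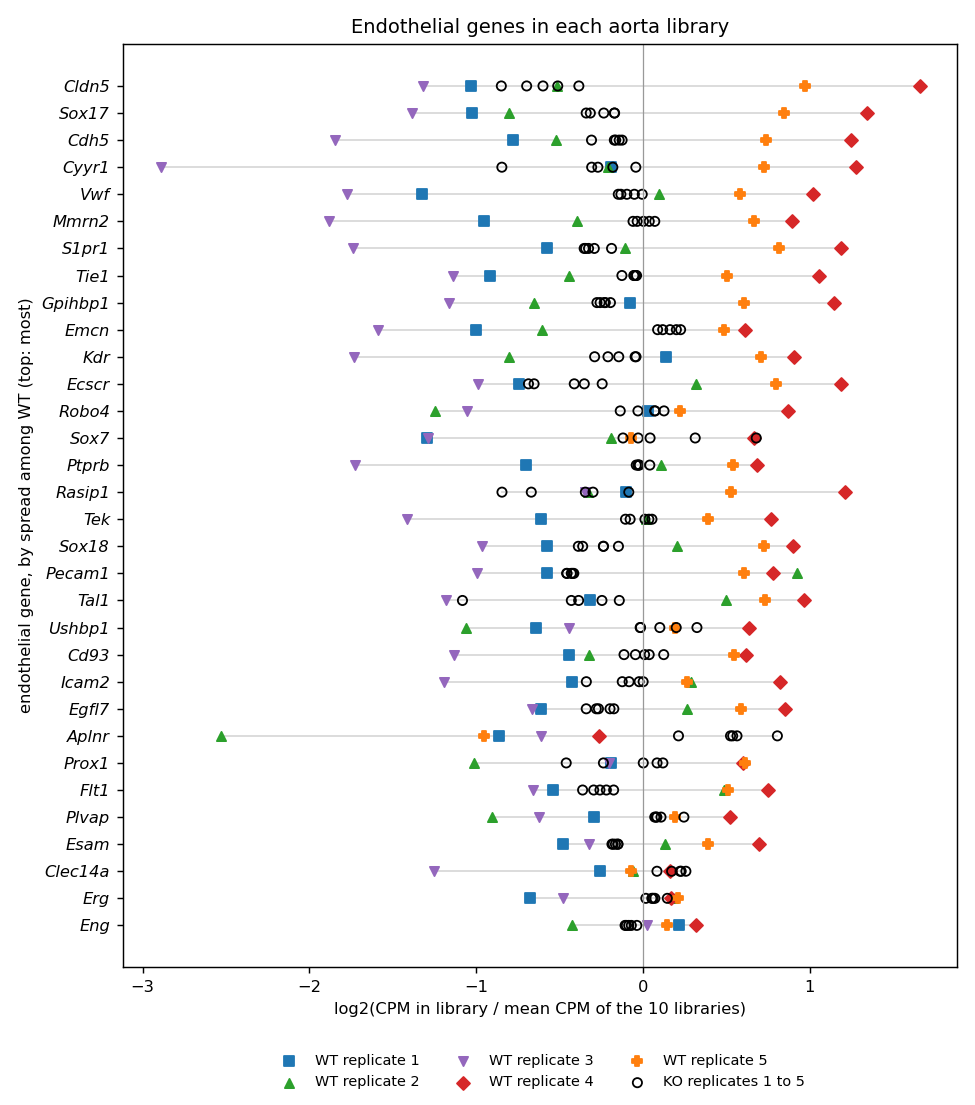
Each row is 1 endothelial gene, and each point its CPM in 1 library as a log2 ratio to the mean of the 10 libraries (filled symbols, WT replicates 1 to 5; open circles, the 5 KO libraries). WT replicate 4 is highest among WT in 29 of 32 rows and WT replicate 3 lowest in 23, with the KO circles close together between them in most rows.

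Growth factor receptors had 0 of 6 past the test as well. Kdr and Flt1 encode VEGF receptors, the former the main signalling receptor and the latter largely a decoy. Kdr had 8.13 to 9.65 CPM in KO and 10.9, 5.69, 2.99, 18.6 and 16.2 CPM in WT replicates 1 to 5, and Flt1 had 39.8 to 45.2 against 35.1, 71.6, 32.3, 86.00 and 72.9 CPM. For Flt1 the KO libraries were close to WT replicates 1 and 3 and below the other 3; for Kdr they were above WT replicates 2 and 3 and below the others. The log2 differences were -0.28 (adjusted p = 0.682) and -0.48 (adjusted p = 0.231).

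Tek, which encodes the angiopoietin receptor TIE2, its partner Tie1, and Ptprb, the phosphatase VE-PTP that restrains TIE2, had differences near 0: -0.03, -0.13 and -0.03 (adjusted p = 0.957, 0.858 and 0.963). Their KO ranges were 12.2 to 13.7, 16.5 to 17.6 and 39.5 to 41.8 CPM, and their WT ranges 4.94 to 22.4, 8.18 to 37.5 and 12.3 to 65.1 CPM. All 3 had the WT order of replicates 4, 5, 2, 1 and 3, highest to lowest. Eng (ENSMUSG00000026814; chromosome 2, 32646595 to 32682669 in GRCm38) encodes endoglin, a co-receptor for bone morphogenetic proteins, and varied least among WT of all 32 (18.2%). It had 71.8, 73.6, 75.4, 72.2 and 72.9 CPM in KO and 89.8, 57.6, 78.5, 96.3 and 85.3 CPM in WT, so that WT replicate 2, not 3, was lowest and WT replicate 1 was next to highest. The log2 difference, KO minus WT, was -0.16 (SE 0.11, adjusted p = 0.379). Without WT replicate 2 Eng passed as lower (log2 difference -0.25, adjusted p = 0.0115). Leaving out the lowest WT library moves a gene toward lower by construction, and 1304 of 15940 genes were called lower in that fit.

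Lectin-like and guidance receptors and their matrix ligands also had 0 of 5 past the test. Cd93 and Clec14a encode related transmembrane glycoproteins that bind Mmrn2, a matrix protein of the vessel wall. Clec14a was a gene of small WT spread (30.9%), with 11.1, 10.5, 10.8, 9.83 and 10.9 CPM in KO and 7.75, 8.89, 3.89, 10.4 and 8.82 CPM in WT. KO replicate 4 alone lay below the WT maximum, and the log2 difference, KO minus WT, was 0.41 (SE 0.20, adjusted p = 0.184). Cd93 and Mmrn2 had log2 differences of 0.01 and 0.0035 (adjusted p = 0.991 and 0.997), with 95% intervals of -0.61 to 0.62 and -0.93 to 0.94 that hold the value of Clec14a. Mmrn2 ran from 4.79 to 32.7 CPM across WT and from 16.9 to 18.5 in KO. Robo4, a roundabout-family receptor that stabilises vessels, had 3.87 to 4.64 CPM in KO and 1.80 to 7.78 in WT, and the secreted matrix protein gene Egfl7 13.2 to 14.8 and 10.6 to 30.3. Egfl7 shares exon sequence with the miR-126 hairpins it hosts and with Agpat2 on the opposite strand, over 64 bases, so its count may hold reads of Agpat2.

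Transcription factors had 0 of 6 past the test. Erg (ENSMUSG00000040732; chromosome 16, 95359169 to 95586593 in GRCm38), an ETS factor that maintains endothelial identity, was next to Pecam1 in abundance per length (25.3 CPM per kb, against 6.24 for Cdh5). It had 88.6, 90.8, 91.3, 96.9 and 91.98 CPM in KO and 54.9, 99.04, 62.7, 98.2 and 101 CPM in WT. WT replicates 2, 4 and 5 were close to each other, unlike most of the other genes, and the log2 difference, KO minus WT, was 0.14 (SE 0.16, adjusted p = 0.606). Sox7, Sox17 and Sox18 form the SOXF group of endothelial regulators, of which Sox17 is the arterial member. Sox17 had 3.99, 4.17, 3.71, 4.17 and 3.77 CPM in KO and 2.31, 2.69, 1.80, 11.9 and 8.45 CPM in WT. Its WT coefficient of variation, 83.1%, was next to that of Cldn5, and the log2 difference, KO minus WT, was -0.46 (SE 0.47, adjusted p = 0.564). Sox18 had 2.83 to 3.35 CPM in KO and 1.90 to 6.92 in WT. For Sox7 the values were 2.25 to 3.91 and 0.996 to 3.87 CPM. The 3 log2 differences were not of 1 sign: 0.44, -0.46 and -0.50.

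Tal1, a factor of blood and endothelial precursors, had 1.02 to 1.95 CPM in KO and 1.72, 3.04, 0.948, 4.20 and 3.58 CPM in WT, with a log2 difference of -0.76 (adjusted p = 0.169). Prox1, which specifies lymphatic endothelium, was the least abundant of the 32 per length (0.062 CPM per kb), with 10 to 15 counts in KO libraries and 6 to 19 in WT libraries. The log2 difference of Prox1 was -0.16 (95% interval -0.84 to 0.52, adjusted p = 0.777). Its WT spread (42.6%) was less than 2 times what counting error alone gives (28.6%).

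The 3 storage, transport and diaphragm genes did not pass. Vwf, the clotting protein stored in Weibel-Palade bodies, had 47.8 to 52.7 CPM in KO and 21.2, 56.5, 15.5, 107 and 79.3 CPM in WT, 6.95-fold from lowest to highest. Plvap, the diaphragm protein of fenestrated and small-vessel endothelium, was among the 5 most abundant per length (11.2 CPM per kb), with 23.4, 23.9, 23.3, 23.5 and 26.3 CPM in KO and 18.1, 11.8, 14.4, 31.8 and 25.3 CPM in WT. Here WT replicate 2 was lowest and the KO libraries lay between WT replicates 1 and 4, and the log2 difference, KO minus WT, was 0.25 (SE 0.23, adjusted p = 0.519). Gpihbp1, which carries lipoprotein lipase across capillary endothelium in fat and muscle, had 11.7 to 12.3 CPM in KO and 13.4, 8.98, 6.29, 31.2 and 21.5 CPM in WT. Its KO values lay between WT replicates 2 and 1, and the log2 difference was -0.44 (adjusted p = 0.449).

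Of the 4 remaining genes, Rasip1, an effector of RAS-family GTPases needed for vessel lumens, had the smallest adjusted p after Aplnr, 0.126. It had 1.17 to 1.97 CPM in KO and 1.95, 1.67, 1.65, 4.86 and 3.02 CPM in WT, and its exons overlap those of Izumo1 over 654 bases on its own strand. Exons of Cyyr1 overlap Gm2541 on its own strand, and those of Eng, Sox17, Prox1 and Ecscr overlap Fpgs, Gm37587, Prox1os and 1700066B19Rik on the opposite strand. Since the strand setting of the counting is not given, reads of these pairs may be shared. Ecscr, a surface protein of endothelial movement and signalling, had 4.43 to 6.02 CPM in KO and 3.59 to 16.2 in WT. Ushbp1 had 7.77 to 9.83 and 3.76 to 12.2 CPM. Cyyr1 showed the greatest fold among WT libraries, with 43, 45, 6, 131 and 79 counts in WT replicates 1 to 5 (18.01-fold in CPM between replicates 4 and 3) and 33 to 59 in KO.

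Spread among the WT libraries was the main feature of these genes. The median coefficient of variation over the 5 WT libraries was 51.9% for the 32 genes and 15.6% for all genes tested. Among genes with a WT mean of at least 1 CPM the values were 53.2% (30 genes) and 13.6% (13757 genes). Of the 32, 23 exceeded 44.9%, the value that 90% of all tested genes lie below. All but Aplnr and Prox1, 30 in number, had more than 2 times the spread that counting error gives. That count was not taken over all genes tested, so it does not set these genes apart. From lowest to highest WT library the median fold was 4.38, against 1.47 for all genes, with a range of 1.67 (Eng) to 18.01 (Cyyr1). Over the 5 KO libraries the median coefficient of variation was 5.07%, near the 5.65% of all genes.

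Most genes had the same libraries at the ends of the WT range, though not the same full order of the 5. WT replicate 4 was highest in 29 of 32 genes and WT replicate 3 lowest in 23, where over all genes tested these libraries held those places in 23.4% and 22.7%. The order meant below, with WT replicates 4 and 5 both above the other 3, held in 26 of 32 genes and in 17.6% of all genes. The exceptions were Pecam1, Icam2, Eng, Clec14a, Aplnr and Erg. Genes of a library share its RNA and its scaling, so these counts describe 5 libraries and not 32 independent observations. WT replicate 2 was the least steady in rank: it was highest for Pecam1 and lowest for Eng, Robo4, Plvap, Ushbp1, Prox1 and Aplnr.

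Ratios between 2 genes of 1 library need no scaling between libraries. Pecam1 stood at 9.39, 22.2, 14.7, 5.89 and 7.44 times the CPM of Cdh5 in WT replicates 1 to 5, and at 6.59 to 7.36 times in KO. For Eng the ratio was 5.88, 3.16, 10.8, 1.55 and 1.96 in WT and 3.02 to 3.44 in KO. For Erg it was 3.59, 5.42, 8.61, 1.58 and 2.32 in WT and 3.73 to 4.35 in KO. Eng and Erg were thus relatively highest in WT replicate 3, where Cdh5 was lowest, and relatively lowest in WT replicates 4 and 5. Sox17 kept nearer to Cdh5, at 0.151, 0.148, 0.247, 0.192 and 0.194 in WT and 0.159 to 0.178 in KO. For Cldn5 the ratio was 0.460, 0.548, 0.788, 0.728 and 0.643 in WT and 0.368 to 0.472 in KO. The endothelial genes therefore did not all scale together between libraries.

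Because of this order, the direction of the comparison depended on the WT library. The KO mean was above WT replicate 3 in 30 of 32 genes, above WT replicate 1 in 25 and above WT replicate 2 in 16, and was above WT replicate 5 in 3 and WT replicate 4 in 2. The median log2 ratio of the KO mean to WT replicates 1 to 5 was 0.39, 0.11, 1.08, -0.97 and -0.67. Over all genes tested it was between -0.02 and 0.0048. In 28 of 32 genes every KO library lay inside the WT range, as in 44.5% of all genes. None had all KO libraries below all WT libraries, where 7.22% of all genes did. The others were Aplnr, above it, and Clec14a, Sox7 and Rasip1, each with part of the KO libraries outside.

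**Figure D3:**
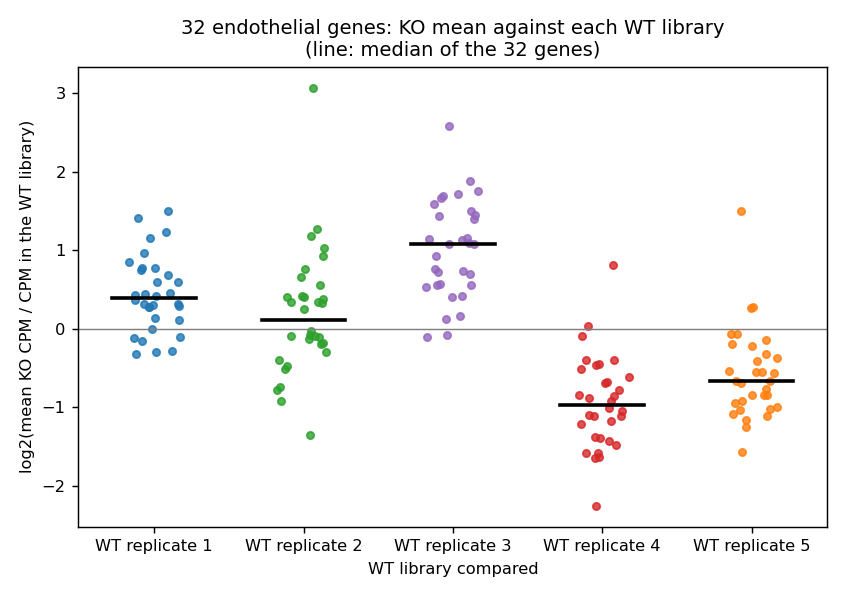
Each point is 1 of the 32 endothelial genes, as the log2 ratio of its mean KO CPM to its CPM in 1 WT library (x axis); black lines are medians. The medians run from 1.08 against WT replicate 3 to -0.97 against WT replicate 4, so the sign changes with the WT library compared.

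The calls followed the same pattern. Without WT replicates 1 and 3, which had the highest mitochondrial share, 15 of the 32 were lower in KO (13.6% of all genes tested were) and 1, Aplnr, was higher (13.7%; 27.2% in either direction). Those lower were Cldn5, Cyyr1, Ecscr, Egfl7, Esam, Flt1, Icam2, Pecam1, Ptprb, Rasip1, S1pr1, Sox18, Tal1, Tek and Vwf. Without WT replicates 4 and 5, 0 were lower (10.1% of all genes were) and 9 higher (9.32% of all genes were; 19.5% in either direction): Aplnr, Cd93, Emcn, Mmrn2, Plvap, Sox7, Sox17, Tie1 and Ushbp1. The median log2 difference was -0.57 in the former fit and 0.40 in the latter. Aplnr alone was called in both. With limma-voom and sample weights, which follow WT replicate 5 most, 15 were lower and 2, Aplnr and Clec14a, higher, where 41.2% of all genes passed in either direction. WT replicates 4 and 5 are also those with the highest endothelial levels (1395 and 1161 CPM summed over the 32 genes). WT replicates 1 and 3 are those with the lowest (575 and 453 CPM). Leaving out either pair therefore moves the comparison by construction.

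Genes of brown fat, which surrounds the mouse thoracic aorta, had the same order among WT libraries. The summed level of 10 brown adipocyte genes was 197, 219, 62.2, 894 and 651 CPM in WT replicates 1 to 5 and 219.7 to 235 CPM in KO, and all 10 were higher in WT replicates 4 and 5 than in the other 3. Ucp1, which uncouples brown fat mitochondria, had 67.1, 61.7, 8.73, 423 and 295 CPM in WT replicates 1 to 5 and 89.7 to 98.8 in KO. None of the 10 passed the 5 against 5 test. The summed level of the 32 endothelial genes was 575, 986, 453, 1395 and 1161 CPM in WT and 721 to 739 in KO. Pecam1 made up 41.1% of the sum in WT replicate 2. The 12 smooth muscle genes summed to 43100.0, 35035, 43019.8, 29045 and 31999.8 CPM in WT and 39603 to 40177 in KO. That sum was lowest in WT replicate 4, where the endothelial sum was highest, but it is mostly Acta2 and Myh11 (14722 and 7229 CPM in WT replicate 4). The mean log2(CPM + 1) of the 12 genes was lowest in WT replicate 2 instead, at 8.95, against 8.98 in WT replicate 4. The part of brown fat or of other tissue in the endothelial values was not tested.

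**Figure D4:**
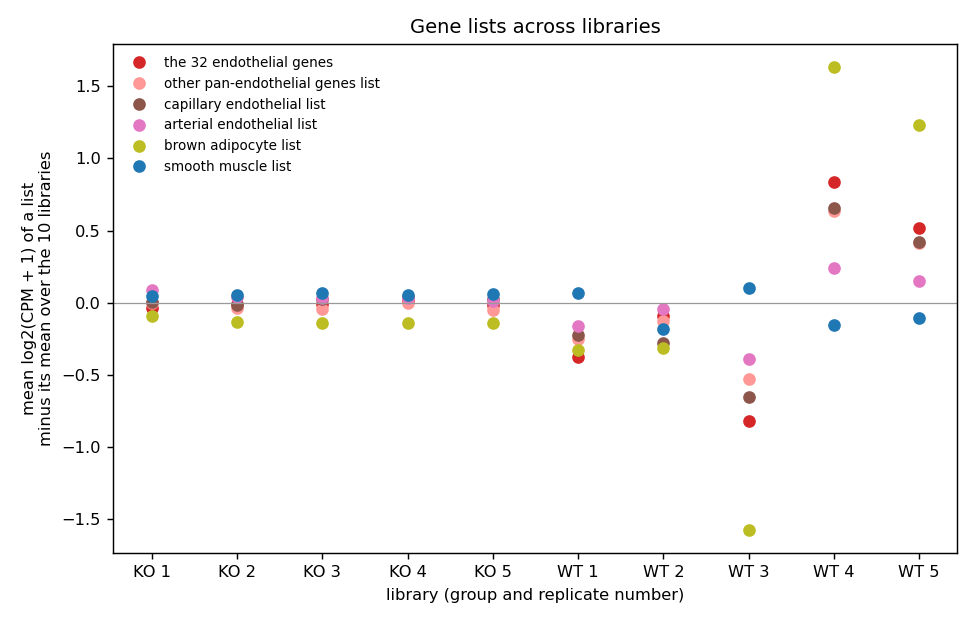
Mean log2(CPM + 1) of 6 gene lists in each library, minus the list's mean over the 10 libraries. The 32 endothelial genes, the capillary and other pan-endothelial lists and the brown adipocyte list are highest in WT replicate 4, then 5, and lowest in WT replicate 3. The arterial list has the same libraries in these places but moves less, and the smooth muscle list has a different order.

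Other endothelial genes, from lists of separate genes, shared this order to different degrees. Of 15 capillary genes, 12 were higher in WT replicates 4 and 5 than in the other 3, among them, as examples chosen after their values were seen, the fatty acid transporter gene Cd36 (71.5, 59.1, 30.6, 189.9 and 142 CPM in WT replicates 1 to 5) and Car4 (3.67, 3.89, 2.50, 14.7 and 11.3 CPM). The same held for 22 of 33 other pan-endothelial genes, such as Nos3, the endothelial nitric oxide synthase (5.89, 7.83, 5.09, 25.1 and 19.2 CPM). It held for 6 of 9 venous genes, such as Selp, a leukocyte adhesion receptor, for 4 of 10 lymphatic genes, and for 4 of 18 arterial genes. Over all genes tested it held for 17.6%, and the arterial share was near that. The mean log2(CPM + 1) of the arterial list still had the order, at 4.67, 4.79, 4.44, 5.07 and 4.98 in WT replicates 1 to 5. WT replicate 4 was highest in 8 of its 18 genes and WT replicate 3 lowest in 7, against 23.4% and 22.7% of all genes. Sema3g and Dll4 are counted in both the arterial and the other pan-endothelial list. The capillary list includes genes that fat cells also express, Fabp4, which is in the general adipocyte list too, and Cd36 and Lpl. The 12 general adipocyte genes summed to 1652, 2043, 1594, 3819 and 3075 CPM in WT replicates 1 to 5 and 1904 to 1952 CPM in KO, and 10 of them were higher in WT replicates 4 and 5 than in the other 3. The arterial list includes genes that smooth muscle also expresses, such as Eln and Fbln5. Its members Sema3g (3.17, 7.48, 2.45, 32.9 and 21.2 CPM) and Dll4 (2.40, 1.67, 0.898, 6.34 and 4.27 CPM) had the order. So did its member Gja5 (6.52, 22.2, 3.39, 32.2 and 26.6 CPM). The arterial regulators Hey1 (6.66, 6.76, 5.94, 5.76 and 6.22 CPM) and Jag1 (46.7, 49.9, 46.1, 54.5 and 49.7 CPM) varied less.

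Calls in these related lists went both ways, and 0 were made with KO as 1 sample. They are read against the 6.84% of all genes tested that were called higher and the 7.43% called lower (14.3% in either direction). Among 16 genes for angiogenic ligands and partners, 5 were higher in KO and 1 lower (median log2 difference 0.08). Angpt1 and Angpt4, ligands of TIE2, had log2 differences of 1.16 (SE 0.24, adjusted p = 0.0105) and 0.66 (SE 0.11, adjusted p = 0.00281). Angpt2, the ligand released by endothelium, had -0.23 (SE 0.19, adjusted p = 0.462). The guidance ligand genes Slit3 and Slit2 had 0.63 (SE 0.09, adjusted p = 0.00141) and 0.40 (SE 0.11, adjusted p = 0.0271), and the VEGF receptor ligand gene Vegfd 0.41 (SE 0.10, adjusted p = 0.0170). Nrp1, a VEGF co-receptor, was lower, at -0.28 (SE 0.08, adjusted p = 0.0343). Vegfa, the main ligand of the product of Kdr, had 38.8, 24.3, 38.3, 74.1 and 61.2 CPM in WT replicates 1 to 5 and 42.5 to 48.1 in KO, a log2 difference of -0.05 (SE 0.25, adjusted p = 0.914).

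Among 21 junction and cytoskeletal partners 1 was higher, the gap junction gene Gja1, at 0.57 (SE 0.10, adjusted p = 0.00348), and 2 were lower, Ctnnd1 and Afdn, which encode partners of cadherins and nectins, at -0.32 (SE 0.06, adjusted p = 0.00527) and -0.29 (SE 0.08, adjusted p = 0.0382). Among 20 transcription factors 3 were higher (Meox2, Mef2c and Nr2f2) and 3 lower (Gata6, Foxc2 and Foxo1). The greatest of these were Meox2, at 1.07 (SE 0.19, adjusted p = 0.00490), and Foxc2, at -0.72 (SE 0.12, adjusted p = 0.00366). Of 33 other pan-endothelial genes Cd34 was higher, at 0.49 (SE 0.07, adjusted p = 0.000806), and Calcrl and Ctla2a lower, at -0.52 (SE 0.12, adjusted p = 0.0152) and -1.83 (SE 0.27, adjusted p = 0.00224). Ctla2a may share reads with its near-identical copy Ctla2b. Among haemostasis and adhesion genes, Plat, which encodes tissue plasminogen activator, was higher at 0.46 (SE 0.05, adjusted p = 0.000188), and Tfpi, which encodes an inhibitor of the tissue factor pathway, was higher at 0.33 (SE 0.08, adjusted p = 0.0214). The arterial list had Efnb2 higher, at 0.21 (SE 0.06, adjusted p = 0.0288), the capillary list Meox2 and the venous list Nr2f2, both already named, and the lymphatic list 0 of 10. Most of these called genes are also expressed by smooth muscle, fibroblasts or other cells of the wall, so their values are not those of endothelium alone.

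Markers of blood and of other cells of the wall, some of which also express endothelial genes, are given beside them. Platelet genes, which matter for Vwf and Pecam1, summed to 17.4 to 18.5 CPM in KO and 21.4, 35.8, 28.00, 37.6 and 30.2 CPM in WT (5 of 10 genes tested, 1 lower in KO). Pf4 had 9.33, 30.6, 11.6, 28.4 and 22.7 CPM of that sum in WT replicates 1 to 5, and Itga2b and Ppbp were highest in WT replicate 3, at 5.39 and 5.59 CPM. Red cell genes, a sign of blood left in the vessel, summed to 19.6 to 22.1 CPM in KO and 109.8, 312, 328, 66.2 and 127 CPM in WT, highest in WT replicates 2 and 3 (5 of 6 tested lower in KO). The 13 macrophage genes summed to 419.7 to 431 CPM in KO and 292, 514, 335, 396 and 398 in WT, with 3 higher in KO. The 9 pericyte genes summed to 5588 to 5685 CPM in KO and 2934, 2921, 4079, 4877 and 4396 in WT, with 1 higher and 1 lower. Most of that sum was Rgs5, at 4377 to 4492 CPM in KO and 1768 to 3616 in WT, and the median log2 difference of the 9 genes was 0.04. The 14 fibroblast genes summed to 7644 to 7752 CPM in KO and 6224 to 6803 in WT, with 7 higher in KO. Lymphocyte and plasma cell genes summed to 282 to 287 CPM in KO and 12.4, 31.2, 16.02, 24.3 and 25.5 CPM in WT, with 7 of 10 tested higher in KO. Of these, the immunoglobulin gene Ighm passed also with KO as 1 sample (adjusted p = 0.0413). Nerve and Schwann cell genes summed to 474 to 492 CPM in KO and 381 to 589 in WT, with 6 of 11 higher in KO and a median log2 difference of 1.19. Over all genes tested 6.84% were called higher and 7.43% lower. The platelet, red cell and lymphocyte lists did not have the WT order of the endothelial genes, with 0 genes in each higher in WT replicates 4 and 5 than in the other 3. Pecam1 did not have that order either. It was highest in WT replicate 2, as were Pf4 and the macrophage sum, unlike Itga2b and Ppbp. The part of these cells in the endothelial values was not tested.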

How the data were processed

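RNA from mouse aorta was sequenced in 10 libraries, 5 labelled KO and 5 labelled WT by title. Each deposited file held raw counts per gene from the authors, whole numbers without normalization. Per the submitters' processing notes an aligner, Bowtie 0.12.2, was used, and mouse builds mm8 and mm9 are both listed there without saying which served for what. The counting tool, gene annotation and strand setting were not given in the sources used here. Gene IDs were matched to GENCODE M21 (GRCm38) for 35519 of 35667 genes, which may not be the authors' annotation, and positions and exon lengths come from that match.

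Genes were kept by edgeR's filterByExpr (minimum count 10, minimum total 15), which left 15710. Libraries were scaled by TMM, and KO was compared with WT by edgeR's quasi-likelihood F test (edgeR 4.0.16, R 4.3.3) with Benjamini-Hochberg adjustment over all genes tested and a threshold of 0.05. The same test was run with the KO counts summed into 1 sample, and DESeq2 1.42.0 and limma 3.58.1 (voom with sample weights) were alternatives, beside other scalings and left-out libraries. The test was also run on simulated data, but the settings and outcome of that run are not reported here. Whether it covered spread as unequal as that of the KO and WT libraries is not stated. No conclusion about the p-values is therefore drawn from it. The labels do not say that libraries came from separate animals, so p-values measure the spread between these libraries. Count intervals are exact Poisson intervals at 95% and cover counting error only.

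The 32 genes and the 21 related lists were chosen with earlier results of these data known. Values in each library are given for genes past the threshold, the 5 highest per length, and the 3 with the most and the 3 with the least spread among WT. Of each related list up to 4 genes of smallest p were to be named; others named are the remaining calls or examples chosen after their values were seen. The full count of calls from the haemostasis and adhesion list is not reported here.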

Additional observations from a re-analysis of the deposited data

Results flagged for a closer look

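Each of the 32 genes was looked at in both groups of 5 libraries for a library far from the others by Dixon's ratio, which chance alone meets in about 1 of 20 groups. Of 64 groups, 4 met it, all in KO. Cdh5 was at 21.2 CPM in KO replicate 5, with 23.3 to 24.02 CPM in the other KO libraries. Plvap was at 26.3 CPM in the same library, with 23.3 to 23.9 CPM in the others. Tie1 was at 16.5 CPM in KO replicate 2, against 17.4 to 17.6 CPM, and Ptprb at 41.8 CPM in KO replicate 1, against 39.5 to 40.002 CPM. These gaps are small beside the range of each gene over WT.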

How the results depend on the processing

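Aplnr stayed higher in KO and past the threshold under every alternative except the KO counts summed into 1 sample, where 0 of the 32 genes were called higher. Its log2 difference ran from 1.19 to 1.63 and its adjusted p from 0.00502 to 0.0325 with 1 library left out. RLE factors, upper-quartile factors, library totals, no low-count filter and DESeq2 each called 1 higher and 0 lower. With 1 library left out, 1 was called higher each time and 0 to 2 lower: Eng without WT replicate 2, and Pecam1 and Tal1 without WT replicate 3. Each was left without its lowest WT library, which moves it toward lower by construction. With 1 library left out the median log2 difference ran from -0.41 to 0.05, above 0 only without WT replicate 4. The median coefficient of variation among WT was 51.6% with RLE factors, 50.5% with upper-quartile factors, 54.6% with library totals and 47.3% to 61.4% with 1 WT library left out. Calls rested on the choice of WT libraries: 15 were lower without WT replicates 1 and 3, and 9 higher without WT replicates 4 and 5. limma-voom with sample weights called 2 higher (Aplnr and Clec14a) and 15 lower, with 19.1% and 22.2% of all genes called. It gave WT replicate 5 a weight of 3.71, WT replicate 4 0.662 and the other WT libraries 0.196 to 0.221, so that its comparison is mainly with WT replicate 5. Counts called over all genes also moved: 7 higher and 0 lower with KO as 1 sample, 1478 and 1497 with DESeq2, 2995 and 3482 with limma-voom, 2204 and 2182 without WT replicates 1 and 3, and 1503 and 1636 without WT replicates 4 and 5.

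Signs of single log2 differences, none of them called in the 5 against 5 fit, turned as follows, and the cause was not tested. Tek and Ptprb were at 0.0083 and 0.0093 with upper-quartile factors, 0.0235 and 0.021 with library totals, and both at 0.0103 without the low-count filter. Without WT replicates 1 and 3 Emcn was at -0.0795, Cd93 at -0.32, Mmrn2 at -0.46, Robo4 at -0.15 and Erg at -0.10. With limma-voom Emcn was at -0.16, Cd93 at -0.41, Mmrn2 at -0.49, Robo4 at -0.17, Erg at -0.0705, Plvap at -0.017 and Ushbp1 at -0.0236. Without WT replicates 4 and 5 Cdh5 was at 0.76, Cldn5 0.31, Esam 0.0312, Icam2 0.20, Kdr 0.45, Tek 0.53, Tie1 0.74, Ptprb 0.56, Egfl7 0.0141, S1pr1 0.35, Sox17 0.80, Sox18 0.0778, Prox1 0.35, Vwf 0.68, Gpihbp1 0.32 and Cyyr1 0.35. With 1 library left out the ranges that crossed 0 were Cdh5 -0.59 to 0.13, Icam2 -0.41 to 0.0378, Kdr -0.52 to 0.0057, Tek -0.24 to 0.24, Tie1 -0.32 to 0.29, Ptprb -0.26 to 0.20, Cd93 -0.17 to 0.22, Mmrn2 -0.23 to 0.35, Robo4 -0.14 to 0.40, Sox17 -0.68 to 0.0554, Prox1 -0.33 to 0.0143 and Vwf -0.41 to 0.21.

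The replicate numbers did not pair the libraries: same-numbered KO and WT deviations correlated at -0.037 to 0.052, and 2 of 5 numbers matched best with themselves. With the replicate block 1 gene was higher (Aplnr, adjusted p = 0.0417) and 0 lower, with a median of -0.08 and 694 and 625 calls over all genes. Tek, Tie1, Ptprb and Vwf were then at 0.11, 0.10, 0.16 and 0.14.

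Depth limits Prox1, Aplnr and Cyyr1, whose libraries held as few as 6, 4 and 6 counts.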
